A study of Homo sapiens with 4 samples.

Results

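The genes described here are 10 that RAS-ERK signalling switches on or that hold it in check: the phosphatase genes DUSP6 and DUSP4, the ETS transcription factor genes ETV5 and ETV4, the Sprouty genes SPRY1, SPRY2 and SPRY4, the related genes SPRED1 and SPRED2, and the immediate early gene EGR1. They were chosen by name, with earlier results of these data known. Every probe set that the platform annotation gives to one of these symbols alone was taken. This gave 17 of the 22277 probe sets and covered 9 of the 10 genes. For SPRED1 the annotation lists no probe set, so it is not analysed here.

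RNA was measured on oligonucleotide arrays in SUP-B15 and BV-173, human lymphoid leukemia cell lines with the Philadelphia chromosome, which encodes the fusion kinase BCR-ABL1. The 4 groups were SUP-B15 cultured for 16 h with 10 μmol/l STI571, untreated SUP-B15, BV-173 cultured for 16 h with 10 μmol/l STI571, and untreated BV-173. STI571, also called imatinib, blocks the kinase activity of ABL1. Each group was a single array of a single culture, the labels name no vehicle for the untreated cells, and no value below has a replicate, so the number of arrays limits the precision.

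BCR-ABL1 recruits the adaptors GRB2 and SHC1 and the exchange factor SOS1, which load RAS with GTP; RAS activates the RAF kinases, these the MEK kinases, and these ERK. Active ERK induces genes whose products restrain it again, so that the RNA of DUSP6, the Sproutys and the SPREDs is often read as a gauge of ERK activity. In BCR-ABL1-driven precursor B cells, this restraint by DUSP6, SPRY2 and ETV5 is known to be needed for transformation.

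The arrays were alike in scale and 1 of them stood apart in a control. Median signal lay between 95.5 and 115, and the 3'/5' control ratio was 1.12 to 1.20 for GAPDH and 2.08 to 2.40 for ACTB, lowest in treated SUP-B15 for ACTB. The 18S ribosomal RNA controls averaged 2817 in treated BV-173 and 1513 to 1596 in the other arrays. Markers of precursor B cells were present: 8 of the 10 measured were above the array median in all arrays, and the other 2, MME and CD34, were above it in SUP-B15 alone. Their summed signal was 97976 in treated and 72283 in untreated SUP-B15, and 45476 in treated and 23410 in untreated BV-173. The brightest were IGLL1, DNTT and BLNK. CD79A had 1582.5 in treated and 1632.6 in untreated SUP-B15, and 502.3 in treated and 897.3 in untreated BV-173. CD22 had 379.4 in treated and 711.7 in untreated SUP-B15, and 1033.5 in treated and 983.2 in untreated BV-173. The other markers were higher in the treated array of each line. Of the T cell, monocyte and erythroid markers, 0 of 8, 0 of 7 and 0 of 4 were above the median in all arrays, and of the granulocyte and natural killer cell markers CTSG and NKG7 were. Natural killer cell markers summed to 338 in treated and 541 in untreated SUP-B15, and to 1213 in treated and 588 in untreated BV-173, with KLRF1 at 682 in treated and 355.5 in untreated BV-173. Whether these differences have a part in the changes below was not tested.

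Changes are differences of log2(signal + 24.5) between treated and untreated cells of a line, a scale that understates the change of dim genes. A gene was tested if a probe set reached the array's median in at least 1 array, and its brightest such probe set stood for it. The test was limma's, for the mean of the 2 lines' responses, over 7916 genes with Benjamini-Hochberg adjustment at 0.05. It has 1 residual degree of freedom and takes each gene's error from the trend over all genes of like brightness. Of the members, 8 were tested. DUSP6, ETV5, SPRY2 and SPRED2 fell, 0 rose, and SPRY1, SPRY4, DUSP4 and EGR1 did not pass. Over all genes tested, 1.62% were called lower and 1.4% higher. Without the intensity trend limma called 0 members (4 had an unadjusted p under 0.05), and without the term for cell line also 0 (3 had). DUSP4, SPRY4 and the EGR1 probe set used entered the test through 1 array alone, an untreated one in each case.

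**Figure D1:**
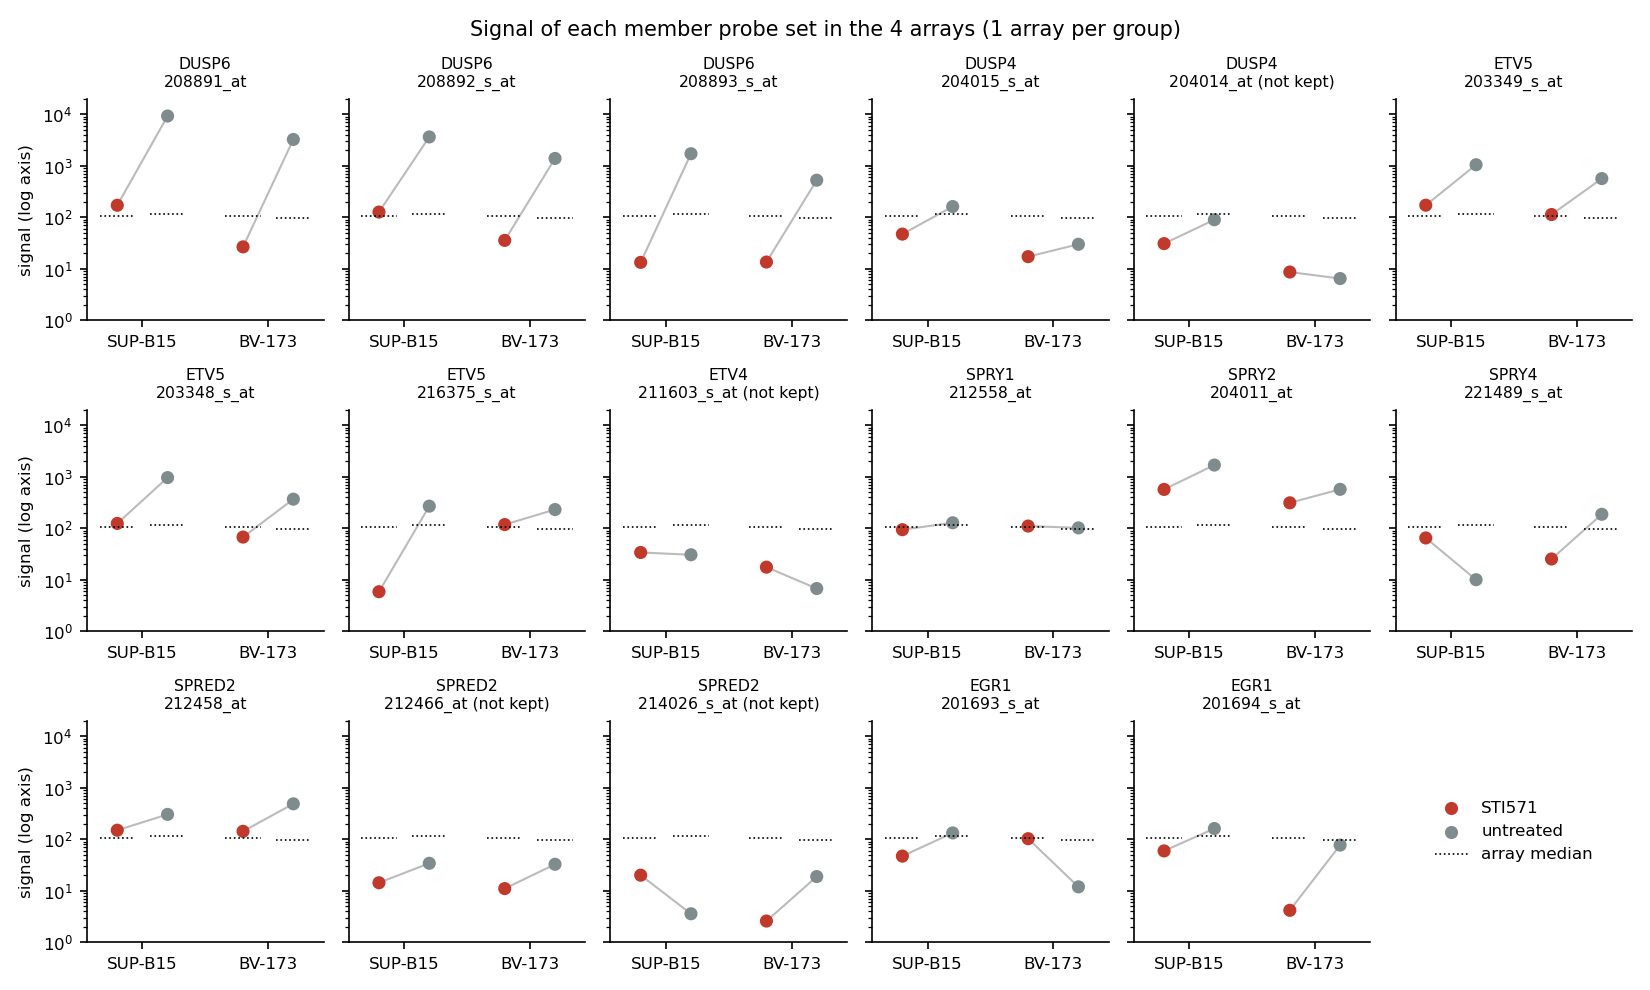
Signal (log axis) of all 17 member probe sets in the 4 arrays, with STI571-treated cells in red left of untreated cells in grey for each line; dotted marks are the array medians. All 3 DUSP6 probe sets lie far lower in both treated arrays, whereas ETV4, DUSP4, SPRY4 and EGR1 lie near or under the median in most arrays.

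The windows before the transcription starts are shown for the 3 members called lower that have an entry in the RefSeq promoter table, and for EGR1, whose SRF sites are a textbook case. The table (GRCh38.p14) holds 7 of the 10 members, and ETV5, ETV4 and DUSP4 are absent from it. Each sequence is the 250 bases before an annotated start, 5′ to 3′ on the gene's strand. Capitals mark CGGAA, a core that ETS factors bind, or the longer CCGGAA, on either strand. In EGR1 they mark the CArG box to which SRF binds.

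DUSP6, chr12:89352502-89352751, minus strand: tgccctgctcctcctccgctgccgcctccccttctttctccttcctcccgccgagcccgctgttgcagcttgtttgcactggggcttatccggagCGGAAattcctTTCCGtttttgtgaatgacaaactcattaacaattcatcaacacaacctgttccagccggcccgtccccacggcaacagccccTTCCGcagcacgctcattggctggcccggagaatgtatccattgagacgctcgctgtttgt
SPRY2, chr13:80341127-80341376, minus strand: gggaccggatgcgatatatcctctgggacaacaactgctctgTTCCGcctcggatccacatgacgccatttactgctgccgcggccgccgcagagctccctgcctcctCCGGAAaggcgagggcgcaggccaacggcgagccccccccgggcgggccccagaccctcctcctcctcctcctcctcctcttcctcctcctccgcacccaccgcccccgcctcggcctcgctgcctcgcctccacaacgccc
SPRED2, chr2:65432600-65432849, minus strand: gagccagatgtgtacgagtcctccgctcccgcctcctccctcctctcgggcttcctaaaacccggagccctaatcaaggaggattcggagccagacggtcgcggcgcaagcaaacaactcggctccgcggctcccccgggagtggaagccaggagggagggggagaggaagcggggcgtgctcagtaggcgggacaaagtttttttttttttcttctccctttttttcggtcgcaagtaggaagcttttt
EGR1, chr5:138465229-138465478, plus strand: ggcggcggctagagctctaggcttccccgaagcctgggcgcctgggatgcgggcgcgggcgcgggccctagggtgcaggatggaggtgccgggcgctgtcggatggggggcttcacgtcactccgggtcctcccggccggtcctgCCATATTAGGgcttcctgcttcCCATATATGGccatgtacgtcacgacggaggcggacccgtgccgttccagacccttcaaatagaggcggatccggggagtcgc

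The DUSP6 window held 3 matches to CGGAA, from 155 to 61 bases before the start, and the SPRY2 window 2, of which 1 was the longer CCGGAA that contains it. Of all 35116 windows in the table, 30.3% held CGGAA and 14.5% CCGGAA on either strand. For SPRY1, which was not called, 1 of 2 windows also held CCGGAA, 67 bases before the start. The windows of SPRY4, SPRED1 and EGR1 held no CGGAA. Other cores that ETS factors bind were not searched. The EGR1 window held 2 CArG boxes, starting 105 and 83 bases before the start, and 1.16% of all windows held any. For SPRY2 the table has 3 starts and for SPRED2 2, of which the one furthest upstream is shown; the other starts of SPRY2 and both of SPRED2 had no CGGAA. TGAATGAA and TGAATGGA are among the forms of the letters that the repressor CIC of ETV4, ETV5 and DUSP6 is known to bind. They and TGANTCA, the AP-1 element, were also searched on both strands. None of the 11 member windows held any of these 3 (1.4%, 0.832% and 6.57% of all windows). Of the CIC targets named, DUSP6 alone has a window, so ETV4 and ETV5 were not searched. Other forms of the CIC letters were not searched in any window, so their absence from the DUSP6 window is not shown. A match or its absence describes these letters in this window alone.

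DUSP6 encodes the cytosolic phosphatase that dephosphorylates ERK. Its brightest probe set, 208891_at, had a signal of 172 in treated and 9305 in untreated SUP-B15, and of 26.8 in treated and 3263 in untreated BV-173. Treated cells thus kept 1.85% of the untreated signal in SUP-B15 and 0.821% in BV-173. The log2 changes were −5.57 and −6.00, the lowest of all 7916 genes in each line, with a mean of −5.79 (SE 0.24; limma adjusted p = 8.28e-120). That p reflects the trend's error and not repeated measurement of DUSP6; without the intensity trend limma's adjusted p was 0.102. Each array measured the RNA of a whole culture, so a loss of expressing cells and less RNA per cell cannot be told apart.

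Both further DUSP6 probe sets fell as well. Probe set 208892_s_at had 127 in treated and 3651 in untreated SUP-B15, and 35.8 in treated and 1397 in untreated BV-173, which gave log2 changes of −4.60 and −4.56. Probe set 208893_s_at had 13.4 in treated and 1725 in untreated SUP-B15, and 13.6 in treated and 528 in untreated BV-173, for changes of −5.53 and −3.86. In all 3 probe sets the treated arrays lay below both untreated arrays. How far DUSP6 fell in BV-173 depends on the added constant, since treated signals there are close to it: the log2 change of 208891_at was −6.88 with 1 added and −4.75 with 98 added.

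DUSP6 also differed between the lines. Signal of 208891_at was higher in SUP-B15 than in BV-173 in untreated cells (9305 against 3263, 2.84-fold on the log2 scale above) and in treated cells (172 against 26.8, 3.83-fold). Averaged over treatment the difference was 1.72 on the log2 scale (SE 0.24; limma adjusted p = 2.36e-11), where 14.4% of all genes were called higher in SUP-B15 and 14.4% lower. In the third probe set the treated levels were alike, at 13.4 in SUP-B15 and 13.6 in BV-173, both under the added constant.

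DUSP4 encodes a nuclear phosphatase of the same family and was dim. Probe set 204015_s_at had 47.4 in treated and 162.7 in untreated SUP-B15, and 17.3 in treated and 30.1 in untreated BV-173. Only untreated SUP-B15 exceeded its array's median. The log2 changes were −1.38 and −0.39, with a mean of −0.88 (SE 0.91; limma adjusted p = 0.825). The other probe set, 204014_at, stayed under the median in all 4 arrays, at 31 in treated and 90.1 in untreated SUP-B15 and 8.7 in treated and 6.5 in untreated BV-173.

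ETV5, an ETS factor of the PEA3 group that ERK signalling induces, had the largest fall among the members after DUSP6. Its probe set 203349_s_at had 172.5 in treated and 1053 in untreated SUP-B15, and 113.7 in treated and 567 in untreated BV-173. On the log2 scale it changed by −2.45 and −2.10, with a mean of −2.27 (SE 0.30; limma adjusted p = 6.47e-11), and 6 of the 7916 genes had a lower mean change. Both treated arrays lay below both untreated arrays, yet all 4 values were above the array medians.

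The second ETV5 probe set, 203348_s_at, gave log2 changes of −2.73 in SUP-B15 and −2.09 in BV-173. The third, 216375_s_at, differed between the lines: it had 5.9 in treated and 270.6 in untreated SUP-B15, and 118.7 in treated and 232 in untreated BV-173, for changes of −3.28 and −0.84. All 3 carry the maker's suffix for probes shared between transcripts. When each kept probe set was tested on its own over 11818 probe sets, all 3 of ETV5 and all 3 of DUSP6 were called lower, and with those of SPRY2 and SPRED2 this made 8 of the 13 member probe sets kept, where 1.56% of all probe sets were called lower. Probe sets of a gene read the same RNA and are not replicates.

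ETV4, the PEA3-group relative of ETV5, was under the median in every array and was not tested. Its probe set 211603_s_at had 34.1 in treated and 30.8 in untreated SUP-B15, and 17.7 in treated and 6.8 in untreated BV-173. These values lie near the added constant, and the log2 changes were 0.08 and 0.43.

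**Figure D2:**
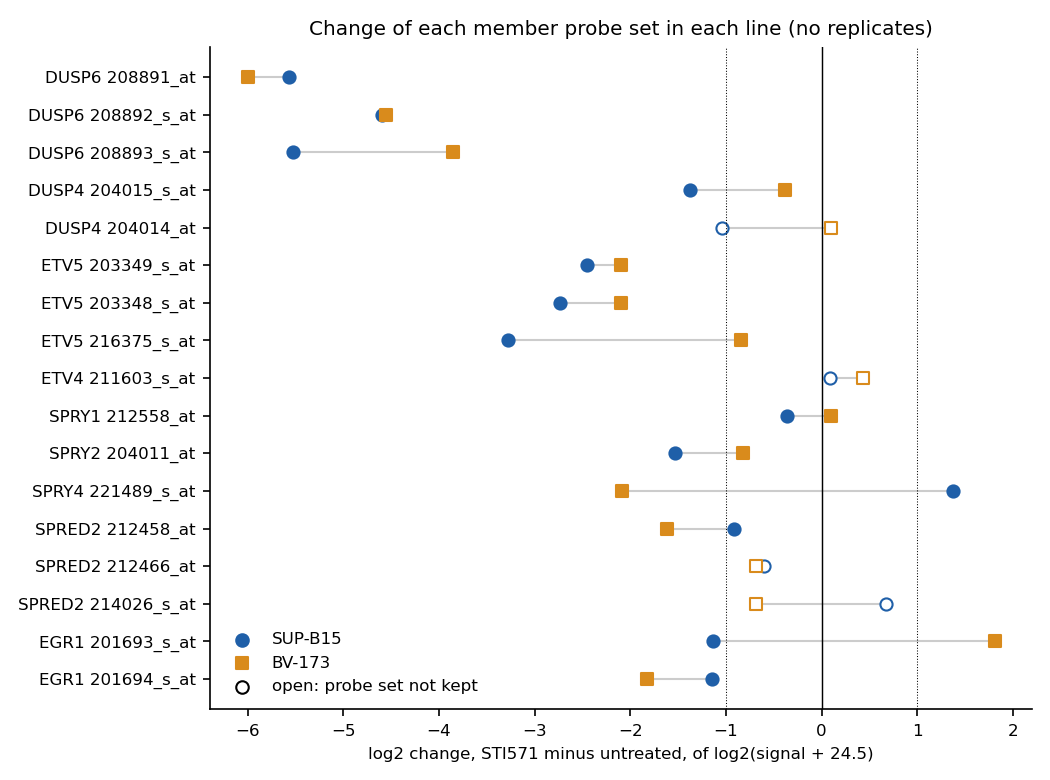
Log2 change with STI571 (treated minus untreated) of each member probe set, as circles for SUP-B15 and squares for BV-173; open symbols are probe sets that stayed under the median in all arrays, and dotted lines mark 2-fold. The DUSP6 and ETV5 probe sets lie left of 0 in both lines, and SPRY4 and 1 EGR1 probe set lie on opposite sides of 0 in the 2 lines.

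The Sprouty proteins are induced by growth factor signals and dampen the step from receptor or kinase to RAS and RAF. Of their 3 genes, SPRY2 fell. Its probe set 204011_at had 571 in treated and 1699 in untreated SUP-B15, and 314 in treated and 574 in untreated BV-173. Log2 changes of −1.53 and −0.82 resulted, with a mean of −1.18 (SE 0.25; limma adjusted p = 0.000247). All 4 values were above the array medians, and treated SUP-B15 still had nearly the signal of untreated BV-173.

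SPRY2 was also higher in SUP-B15 than in BV-173, 2.88-fold in untreated and 1.76-fold in treated cells. Averaged over treatment that difference was 1.17 on the log2 scale (SE 0.25; limma adjusted p = 2.11e-05). DUSP6 and SPRY2 were the members called for the difference between the lines, 2 of 8 tested, and 0 were called lower in SUP-B15 (14.4% each way over all genes).

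SPRY1 stayed close to the array medians. Its probe set 212558_at had 94.5 in treated and 128.8 in untreated SUP-B15, and 111.1 in treated and 102.3 in untreated BV-173. The log2 changes were −0.37 and 0.10 (SE of the mean 0.55; limma adjusted p = 0.97).

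SPRY4 went opposite ways in the 2 lines. Its only probe set, 221489_s_at, had 65.3 in treated and 10.1 in untreated SUP-B15, and 25.5 in treated and 188 in untreated BV-173. Untreated BV-173 was the only array above its median. The log2 changes were 1.38 in SUP-B15 and −2.09 in BV-173, so the mean of −0.36 (SE 0.90; limma adjusted p = 0.951) describes neither line. The difference between the 2 responses, 3.46 on the log2 scale, could not be tested with 1 array per group.

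SPRED proteins bring the RAS inhibitor neurofibromin to the membrane. SPRED2 fell in the probe set that was kept, 212458_at, with 150.8 in treated and 306 in untreated SUP-B15, and 143.6 in treated and 491 in untreated BV-173. Its log2 changes were −0.92 and −1.62, with a mean of −1.27 (SE 0.35; limma adjusted p = 0.0146). Both treated values were lower than both untreated values and above the array medians. The call ended when no filter was used (adjusted p = 0.0967) and with a filter at the 75th percentile (0.0689).

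The other SPRED2 probe sets were under the median in all arrays. Probe set 212466_at was lower after treatment in each line, at 14.4 in treated and 34.4 in untreated SUP-B15 and 11.1 in treated and 32.9 in untreated BV-173. Probe set 214026_s_at had 20.2 in treated and 3.6 in untreated SUP-B15, and 2.6 in treated and 19 in untreated BV-173, all of them below the added constant.

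EGR1 encodes a zinc finger factor that is transcribed within minutes of ERK activation through the factors SRF and ELK1; its window holds both CArG boxes shown with the promoters. Its 2 probe sets disagreed in BV-173. Probe set 201693_s_at had 47.4 in treated and 133.6 in untreated SUP-B15, and 103.3 in treated and 12 in untreated BV-173. Probe set 201694_s_at had 59.8 in treated and 162.6 in untreated SUP-B15, and 4.2 in treated and 77.6 in untreated BV-173.

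Both EGR1 probe sets were thus lower in treated SUP-B15, by log2 changes of −1.14 and −1.15, while in BV-173 they gave 1.81 and −1.83. For each, untreated SUP-B15 was the only array above its median. Neither was called: the mean change was 0.34 for the first (SE 0.81; limma adjusted p = 0.949) and −1.49 for the second (SE 0.81; limma adjusted p = 0.487 over probe sets). With the mean of both probe sets the mean change became −0.58.

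Set against all genes, the members spread widely. At least 2-fold lower in both lines were 2 of the 8 tested, DUSP6 and ETV5, where 0.846% of all genes were. Whatever the change in the other line, 5 of 8 were at least 2-fold lower in SUP-B15 (5.68% of all genes) and 4 of 8 in BV-173 (4.6%). Both counts include DUSP6 and ETV5. The change was below 0 in each line for 5 of 8 members and for 26.5% of all genes. The members' median mean change was −1.03, that of all genes 0.02. These counts leave out ETV4 and SPRED1, and they include members that entered the test through their highest array. The members were also chosen with earlier results of these data known. The counts thus describe the 8 genes and nothing further is read from them.

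**Figure D3:**
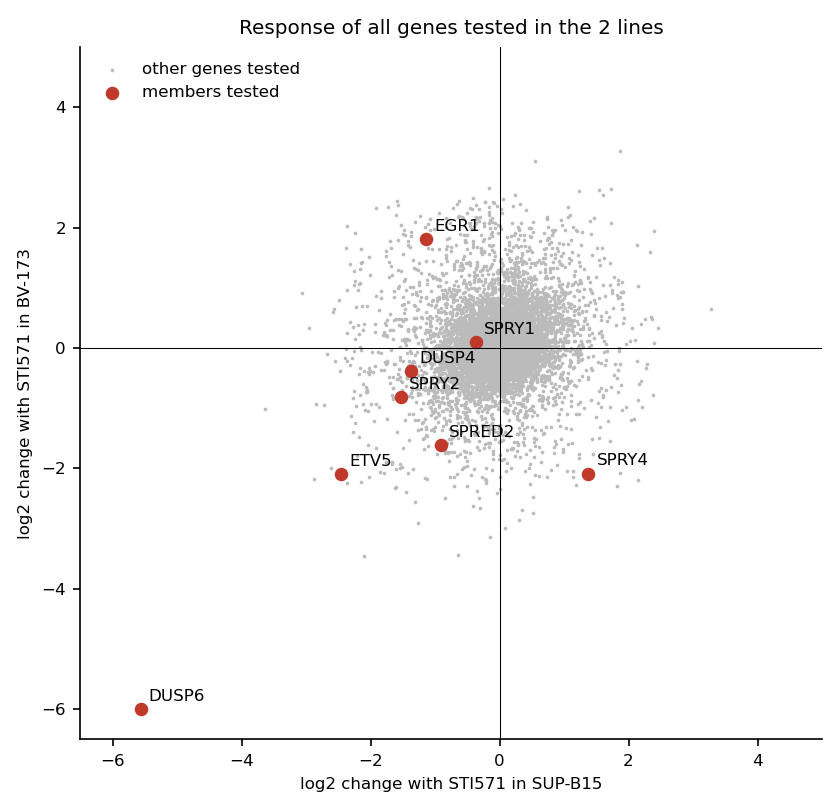
Log2 change with STI571 in SUP-B15 (horizontal) and BV-173 (vertical) of the 7916 genes tested, 1 array per group; the 8 members tested are red. DUSP6 lies apart from all other genes at −5.57 and −6.00, ETV5 at the lower left edge of the cloud, SPRY1 near its centre, and EGR1 and SPRY4 where the signs of the lines oppose.

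The rest of the pathway was described from lists by role, of which 78 of 118 genes were tested. Called lower were 3 of the 78 (1.62% of all genes) and called higher 3 (1.4%), and the median mean change was 0.05, beside 0.02 over all genes. Upstream of RAF, where adaptors and exchange factors act, 1 of 14 was called, SOS2, an exchange factor of RAS, which rose. It had 1054 in treated and 544 in untreated SUP-B15, and 619.5 in treated and 358 in untreated BV-173 (mean log2 change 0.84, SE 0.25; limma adjusted p = 0.0317). Scaling to a common median (adjusted p = 0.184) or by quantiles (0.0612), among other settings, ended that call.

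Of the RAF, MEK and ERK kinases, their scaffolds and the kinases that ERK activates, 0 of 10 were called; the largest mean change was that of the ribosomal S6 kinase gene RPS6KA2, at log2 changes of 0.18 in SUP-B15 and 1.33 in BV-173 (limma adjusted p = 0.423). Among other inhibitors of the pathway 0 of 7 were called, and CBLB, a ubiquitin ligase, had 0.30 and 1.11 (limma adjusted p = 0.223). The median mean change was −0.09 in the kinases and −0.02 in the inhibitors.

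Among the other dual specificity phosphatase genes 1 of 9 was called, and it rose. DUSP1, a nuclear phosphatase of several MAP kinases, had 1524 in treated and 1287 in untreated SUP-B15, and 1041 in treated and 258 in untreated BV-173. Log2 changes were 0.24 and 1.91, with a mean of 1.08 (SE 0.23; limma adjusted p = 0.000435), so most of the rise was in BV-173. Its second probe set gave −0.25 and 0.69, and averaging the probe sets ended the call (adjusted p = 0.509).

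Among the other ETS factor genes 1 of 17 was called, ERG, which is expressed in progenitors and rose. It had 1498 in treated and 1088 in untreated SUP-B15, and 1044 in treated and 357.5 in untreated BV-173 (mean log2 change 0.97, SE 0.23; limma adjusted p = 0.0023). Its second probe set gave 0.11 and −0.44, and averaging its probe sets ended the call (adjusted p = 0.642). None of the 17 was negative in both lines, and the list's median mean change was 0.41. Of EGR1's relatives and NAB corepressors 2 were tested and 0 called, NAB2 having log2 changes of 2.36 and 0.48 (limma adjusted p = 0.258). CIC and ATXN1 were not called either; ATXN1, which binds CIC, had 0.34 and 0.21 (limma adjusted p = 0.966).

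Other genes known to be transcribed in response to ERK were called lower in 3 of 17 and higher in 0, while the list's median mean change was −0.01. HBEGF, a ligand of the EGF receptor, had 168 in treated and 440 in untreated SUP-B15, and 49.5 in treated and 534 in untreated BV-173 (mean log2 change −2.09, SE 0.36; limma adjusted p = 2.75e-06). IER2, an immediate early gene, had 736 in treated and 1948 in untreated SUP-B15, and 604 in treated and 1032 in untreated BV-173 (−1.06, SE 0.23; limma adjusted p = 0.000354). TRIB1, a pseudokinase that binds MEK, had 480 in treated and 1334 in untreated SUP-B15, and 1212 in treated and 1726.5 in untreated BV-173 (−0.97, SE 0.22; limma adjusted p = 0.00143). In each of the 3, the treated array of a line lay below its untreated one.

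**Figure D4:**
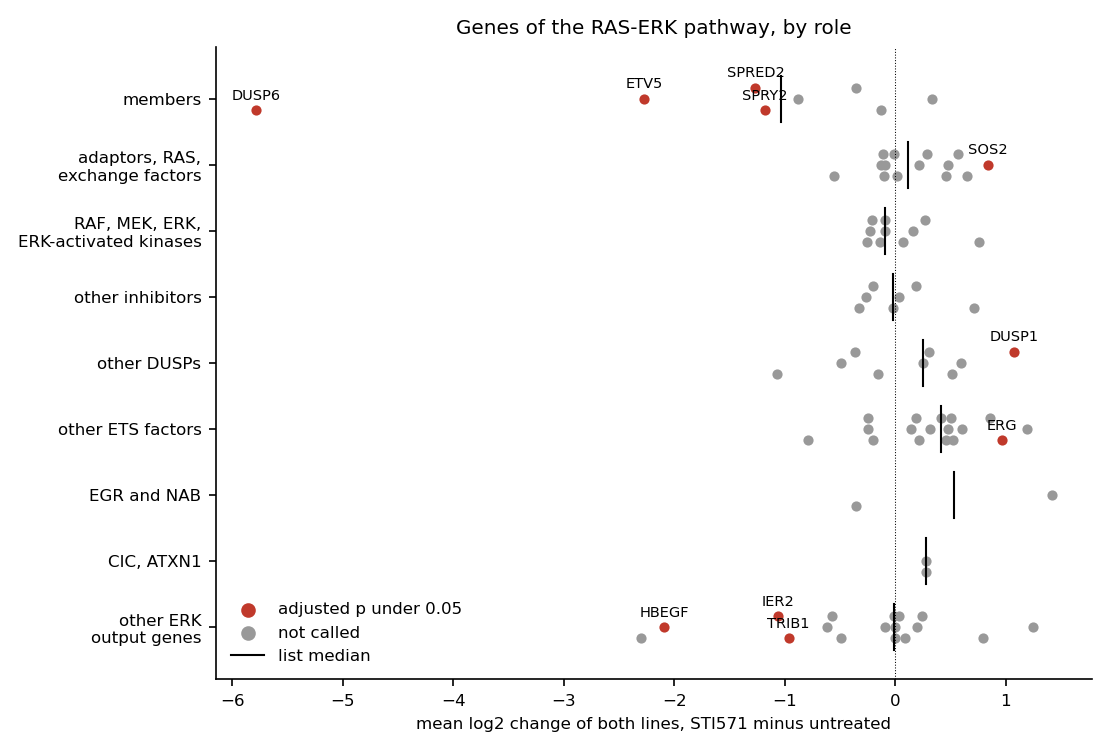
Mean log2 change of both lines (STI571 minus untreated) of each gene tested, by role in the RAS-ERK pathway, 1 array per group; red points passed an adjusted p of 0.05 and black bars are list medians. Calls to the left are 4 members and 3 other output genes, calls to the right SOS2, DUSP1 and ERG.

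Genes whose 4-array profile lay closest to that of a member were found by Euclidean distance between log2 values centred on each gene's own mean, over 4 arrays. No gene lay near DUSP6 by this distance, which grows with the size of a change, and DUSP6 had the lowest change in each line. The closest were the ephrin gene EFNA3 at 3.52, TNF at 3.79 and SIGLEC15 at 3.79. Their correlations with DUSP6 over the 4 arrays were 0.98, 0.87 and 0.85. For ETV5 the closest were EFNA3 at 0.35, EMP1 at 0.47 and CFAP74 at 0.50. EFNA3 had 19.9 in treated and 300.4 in untreated SUP-B15, and 14.8 in treated and 154 in untreated BV-173, and fell (limma adjusted p = 0.0157), whereas EMP1 (0.236) and CFAP74 (0.201) did not pass. For the EGR1 probe set used, the closest were ZNF324 at 0.21, RBP3 at 0.24 and SLC6A11 at 0.26, whose adjusted p-values by limma were 0.87 to 0.963 and whose signals stayed between 12.6 and 186.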

How the data were processed

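The authors deposited a linear signal intensity for each probe set. Labelling followed standard Affymetrix protocols, per the labels, and the submitters' processing notes name GCOS 1.3 (probe summarisation: not given in the sources used here). Scale was checked on the values: the deposited columns had equal 2%-trimmed means of 500.2, so the authors had scaled the arrays. Probe sets with 1 gene symbol (19064 of 22277) were used; symbols of all 9 members measured matched RefSeq by Entrez ID.

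From these values log2(signal + 24.5) was computed, the constant being the 25th percentile of all signals. Limma 3.58.1 (R 4.3.3) was fitted to 4 arrays with terms for cell line and for treatment and an intensity trend; its prior degrees of freedom were infinite. All tests were two-sided. The fit was also run on simulated data drawn with the trend's own error, which cannot check whether that error holds for these arrays. Responses within a line have no test. Alternatives were quantile normalization, a common median, constants of 1 and 98, no filter or a 75th percentile filter, the mean of probe sets, gene-specific probe sets, each probe set on its own, no trend, a robust prior, and no line or treatment term.

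Members, lists and tests were chosen with earlier results of these data known. Named besides members were up to 3 called genes per list with the largest mean change (the largest 1 where none was called) and the 3 nearest profiles of DUSP6, ETV5 and EGR1.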

Additional observations from a re-analysis of the deposited data

Results flagged for a closer look

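Opposite signs in the 2 lines drew attention to 5 of the 17 member probe sets; with 1 array per group the differences were not tested, and each is the SUP-B15 change minus the BV-173 change on the log2 scale. Of the 7916 genes tested, 2096 fell in both lines and 2279 rose in both, so opposite signs were common and are no trait of the members. SPRY4 differed by 3.46. EGR1 probe set 201693_s_at differed by −2.94, while the other EGR1 probe set had the same sign in both lines. SPRED2 probe set 214026_s_at differed by 1.35, DUSP4 probe set 204014_at by −1.14 and SPRY1 by −0.46.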

How the results depend on the processing

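Limma called 3 or 4 members lower and 0 higher under each alternative that tests STI571 but 2. Without the intensity trend 0 members were called, and 0 genes of 7916 called lower, although 4 members and 658 genes had an unadjusted p under 0.05; without the cell line term it was again 0 and 0 (3 members and 70 genes unadjusted). In both, 0 pathway genes were called lower and 0 higher. Genes called lower numbered 61 with the mean of probe sets and 74 with gene-specific probe sets. Pathway genes called higher were 1 with a common median, 0 with the mean of probe sets and 1 with gene-specific probe sets. Members at least 2-fold lower in SUP-B15 were 3 with a constant of 98, 3 with the 75th percentile filter and 2 with gene-specific probe sets, which also left 2 in BV-173; the last 2 settings test fewer genes. Members higher in SUP-B15 than in BV-173 were 1 without the trend and 0 without the treatment term. No member's call reversed. SPRED2 lost its call without a filter and with the 75th percentile filter. The cause of these shifts was not tested, except that the settings named as testing fewer genes no longer include some members. Values near the added constant carry no reliable size, and detection calls were not used here.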
